A study of Mus musculus with 15 samples.

Results

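The 10 genes described here are grouped as feedback inhibitors of the extracellular signal-regulated kinase (ERK) pathway. They are the dual-specificity phosphatase genes Dusp1, Dusp2, Dusp4, Dusp5, Dusp6 and Dusp10, the Sprouty genes Spry1 and Spry2, and the SPRED genes Spred1 and Spred2. They were chosen by name, with earlier results of these data known. All 10 were among the 29989 genes tested of 30949 genes listed in every library. Their levels were measured in Treg (regulatory T) cells, which restrain other immune cells, sorted from lymph nodes and spleen of C57BL/6 females. All mice were Foxp3 YFP-Cre/+ and Dock8 flox/flox, so that every cell carried floxed Dock8. The YFP-Cre fusion sits in Foxp3, on the X chromosome, and so is made in cells that express Foxp3. A female cell silences one of its X chromosomes, so these mice hold Treg cells with YFP and Cre, which are DOCK8 deficient (called KO here), beside YFP- Treg cells without Cre (called WT). KO cells therefore differed from WT cells also in carrying YFP and Cre and in the X chromosome in use. The CD25+CD39+ cells (sorted as CD3+ or as CD4+, depending on the label) spent 16 h in culture, either without stimulus or together with an equal number of beads that carry antibodies to CD3 and CD28, the signalling chains of the T cell receptor and its costimulator. Smart-Seq2 libraries were made from 4 WT and 6 KO samples without beads and from 3 WT and 2 KO samples with beads. The labels call the samples independent but do not say whether they came from separate mice or cultures, so p-values measure only the spread between these samples. The age of the mice is not given in the sources used here.

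ERK is the last kinase of a cascade in which RAS activates RAF, RAF activates MEK, and MEK phosphorylates ERK on a threonine and a tyrosine. T cell receptor engagement switches the cascade on, and active ERK induces early response transcription factors together with its own inhibitors. Dual-specificity phosphatases remove both phosphates from ERK or from the related kinases JNK and p38, while Sprouty and SPRED proteins act further upstream, on the activation of RAS and RAF. The product of Dusp10 prefers JNK and p38 to ERK. RNA levels of some of these inhibitors are often used as a readout of recent ERK activity. Such levels measure neither the phosphorylation of ERK nor the amount of inhibitor protein.

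Levels are in TPM, which gives each gene's share of the transcripts in a library, corrected for transcript length. Read depth cannot be recovered from such shares and is unknown here. As a check of the labels, Dock8 was at 14.6 ± 5.35 TPM in WT (SD, n = 4) and 8.58 ± 1.85 TPM in KO cells (n = 6) without beads (log2 -0.67, exact two-sided permutation p = 0.019), and at 9.25 ± 0.763 and 6.86 ± 1.47 TPM with beads (n = 3 and 2, exact permutation p = 0.1, the smallest that 3 against 2 allows). The value sums over the whole gene, so transcripts of a recombined allele still count, and the difference without beads was -0.46 when the WT library numbered 3 was left out (exact permutation p = 0.0714). Foxp3, the transcription factor that defines Treg cells, had 43.2 ± 10.4 TPM without beads and 98.7 ± 9 TPM with beads in WT cells, against 13.3 ± 6.77 and 42.5 ± 0.386 TPM in KO cells. Marker sums also differed between groups. Markers of T and Treg cells (10 genes) without beads summed to 794 to 1418 TPM in WT libraries and to 501 to 746 TPM in KO libraries, ranges that did not overlap, and to 1628 to 1704 and 1805 to 1870 TPM with beads. The 7 CD8 T and NK cell markers without beads summed to 31.2 to 59.4 TPM in WT libraries and to 28.7 to 50.1 TPM in KO libraries, and to 13.8 to 19.6 and 18.4 to 34.9 TPM with beads. The 6 stromal and epithelial markers summed to 40.9 to 59 and 27.6 to 83 TPM without beads, and to 19.6 to 25.4 and 16.2 to 28.8 TPM with beads. The 6 B cell markers summed to 7.14 to 37.6 TPM over all libraries and the 7 of 9 myeloid markers listed to 2.4 to 37.4 TPM, with groups that overlapped. Gzma and S100a9 were at 0 in both KO bead libraries. A group of 10 predicted genes took 26.6% to 49.4% of TPM in KO libraries without beads, 15.9% to 36.1% in WT without beads, 8.37% to 14.4% in WT with beads and 12.8% to 19.3% in KO with beads. The scale of 815 abundant genes moved with the groups as well, with a mean factor of 0.847 ± 0.168 in KO without beads (n = 6) and 1.17 ± 0.0339 in KO with beads (n = 2). The KO bead responses printed for single members, and the medians of lists, are therefore also given after scaling to those genes (called scaled). Single genes of other lists are given as deposited. The part of these measures, or of cells other than Treg cells, in the results below was not tested.

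With beads, part of the ERK feedback genes rose in Treg cells of each genotype, most of them nuclear phosphatases. limma called Dusp4 and Dusp5 higher in WT cells, and Dusp1, Dusp2, Dusp4, Dusp5 and Spry1 higher in KO cells, at an adjusted p under 0.05. No member was called lower in either genotype. Calls in either direction were made for 11.2% of all genes tested in WT and 8.11% in KO cells. Calls of higher genes were made for 4.6% of all genes in WT and 5.95% in KO cells, or 9.63% and 12.4% among the 14262 genes that averaged 5 TPM or more in some group. Against these shares, 2 of 10 members were called higher in WT and 5 of 10 in KO cells. Leaving out either KO bead library left 2 members called in KO cells, Dusp4 and Dusp5, in a fit that assumes the remaining library to vary like the other groups. The median log2 difference of the 10 members was 0.70 in WT and 1.73 in KO cells (1.34 scaled), while the medians of all genes tested were -0.44 and -0.23 (-0.46 scaled) and those of the 14262 more abundant genes -0.39 and 0.09.

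**Figure D1:**
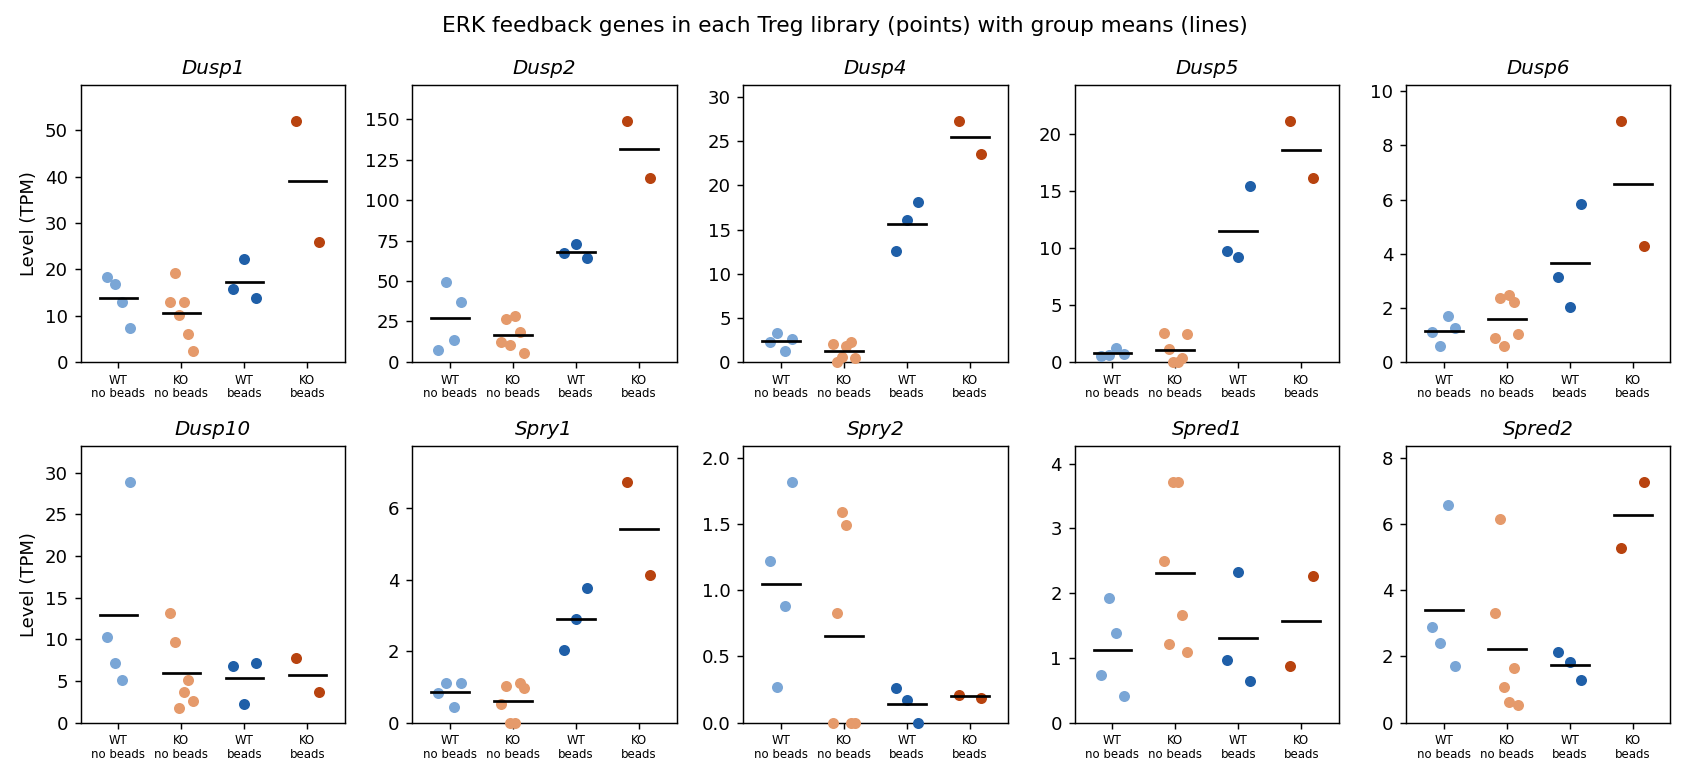
Level of each ERK feedback gene in TPM (vertical axis, linear, starting at 0 and with its own range in each panel) in the 4 groups of Treg libraries; points are libraries (n = 4, 6, 3 and 2) and black lines are group means. Dusp4 and Dusp5 stay at or below 3.3 TPM in every library without beads and are at 9.2 TPM or more in every library with beads.

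Dusp4 and Dusp5 gave the clearest response. Dusp4 (ENSMUSG00000031530, chromosome 8, 34807297 to 34819894, plus strand, mm10) encodes a nuclear phosphatase that acts on ERK and JNK. Its values were 2.22, 3.30, 1.29 and 2.58 TPM in the WT libraries without beads and at 12.6, 16.1 and 18.1 TPM in those with beads. KO libraries ranged from 0 to 2.26 TPM without beads and were at 27.3 and 23.6 TPM with beads. All 5 bead libraries lay above all 10 libraries without beads. The log2 difference on the log2(TPM + 1) scale was 2.33 in WT (SE 0.44, limma adjusted p = 0.00395) and 3.72 in KO cells (SE 0.47, limma adjusted p = 0.00026). Scaled, the KO difference was 3.43 (limma adjusted p = 0.000501). The call in WT cells was lost with a pseudocount of 0.1 TPM (limma adjusted p = 0.0583).

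Dusp5 (ENSMUSG00000034765, chromosome 19, 53529109 to 53542431, plus strand) encodes a nuclear phosphatase specific for ERK. WT libraries had 0.557, 0.617, 1.23 and 0.734 TPM without beads and 9.75, 9.20 and 15.4 TPM with beads. In KO cells the lowest, median and highest values without beads were 0, 0.769 and 2.54 TPM, and the bead libraries had 21.1 and 16.1 TPM. Here too all 5 bead libraries lay above all 10 libraries without beads. The log2 differences were 2.78 in WT (SE 0.49, limma adjusted p = 0.00258) and 3.42 in KO cells (SE 0.52, limma adjusted p = 0.00103), and both calls were kept under all 28 alternatives. Scaled, the KO difference of Dusp5 was 3.09 (limma adjusted p = 0.00381). In the annotation 547 of the 2473 exon bases of Dusp5 are shared with the antisense gene AC137853.2, whose reads cannot be told apart from those of Dusp5 because Smart-Seq2 does not mark strand.

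Stretches of the Dusp5 and Dusp1 promoters are shown because they hold the motifs found before members that rose with beads. The 250 bases before the start site of the RefSeq promoters (build GRCm38.p6) were searched on both strands. Of the 10 members 9 were matched, all but Dusp4. The motifs were the CArG box bound by serum response factor, which lies downstream of ERK, and the cAMP response element core TGACG. The AP-1 site TGANTCA and CCGGAA, a strict form of the ETS site, were searched as well. Capitals mark CArG boxes and TGACG, which reads CGTCA when it lies on the other strand; positions count back from the start site, and each sequence is on the gene's strand.
Dusp5, chr19:53529051-53529106, plus strand: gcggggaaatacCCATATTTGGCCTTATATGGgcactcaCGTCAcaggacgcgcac
Dusp1, chr17:26508596-26508675, minus strand: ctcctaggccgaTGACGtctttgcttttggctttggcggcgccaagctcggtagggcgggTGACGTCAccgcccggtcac
Dusp5 held 2 CArG boxes side by side, at 82 to 73 and 72 to 63 bases before the start, and 1 TGACG on the opposite strand at 55 to 51. In the GENCODE annotation this stretch lies just before the first exon of Dusp5 and inside the exon of AC137853.2. Dusp1 held TGACG at 191 to 187 and at 143 to 139 bases, the latter overlapping a match on the opposite strand at 140 to 136. This stretch lies before the main start of Dusp1 and in an intron of its longest annotated transcript. Spred2 held 1 TGACG, on the opposite strand at 51 to 47 bases. Over the 32851 promoters of the table, 1.47% held a CArG box, 17.8% TGACG, 6.75% the AP-1 site and 12% CCGGAA. Neither TGANTCA nor CCGGAA was found before any of the 9 members. Shorter forms of the ETS site were not searched. The windows of Dusp2, Dusp6, Dusp10, Spry1, Spry2 and Spred1 held none of the 4 motifs. A match is a description of the letters and was not tested as a binding site.

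Dusp2 was the most abundant member with beads. The gene (ENSMUSG00000027368, chromosome 2, 127336159 to 127338376, plus strand) encodes PAC-1, a nuclear phosphatase known for its induction in activated lymphocytes. WT libraries had 7.33, 49.6, 13.3 and 37.3 TPM without beads and 67.2, 72.9 and 64.0 TPM with beads. KO libraries had a lowest, median and highest value of 5.43, 15.2 and 28.3 TPM without beads, and 149 and 114 TPM with beads. The bead libraries lay above those without beads in both genotypes, and the WT libraries without beads were widely spread. The log2 difference was 3.05 in KO cells (SE 0.63, limma adjusted p = 0.00758) and 2.59 scaled (limma adjusted p = 0.0116). In WT cells it was 1.65 (SE 0.59, limma adjusted p = 0.0874), which passed the threshold when the WT library numbered 1 without beads was left out (limma adjusted p = 0.0456).

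Dusp1 was called in KO cells. The gene (ENSMUSG00000024190, chromosome 17, 26505590 to 26562128, minus strand) encodes MKP-1, an early response nuclear phosphatase that acts on p38 and JNK as well as ERK. WT libraries had 18.3, 16.8, 13 and 7.40 TPM without beads and 15.8, 22.3 and 13.8 TPM with beads, and these ranges overlapped (log2 0.34, 95% interval -0.77 to 1.45, limma adjusted p = 0.719). KO libraries ranged from 2.44 to 19.1 TPM without beads, with a median of 11.5 TPM, and had 52.0 and 25.9 TPM with beads. The KO difference of 1.91 (SE 0.56) was just past the threshold (limma adjusted p = 0.048) and lost its call under 16 of 28 alternatives. After scaling it was 1.47 (limma adjusted p = 0.102) and the ranges overlapped. Dusp1 shares 11 of its 3311 exon bases with Ergic1, on the opposite strand.

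Dusp6 encodes MKP-3, the cytoplasmic phosphatase specific for ERK (ENSMUSG00000019960, chromosome 10, 99263231 to 99267489, plus strand). It was low, at 1.09, 0.571, 1.68 and 1.26 TPM in WT libraries without beads and 3.14, 2.02 and 5.82 TPM with beads. KO libraries had 0.575 to 2.49 TPM without beads and 8.90 and 4.27 TPM with beads. Bead libraries lay above the others within each genotype, but neither difference passed the threshold and the WT ranges overlapped after scaling. The log2 difference was 1.06 in WT (95% interval 0.14 to 1.98, limma adjusted p = 0.132) and 1.55 in KO cells (95% interval 0.56 to 2.53, limma adjusted p = 0.0525). Scaled, the KO difference was 1.20 (limma adjusted p = 0.126).

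Dusp10, which encodes MKP-5, a phosphatase that prefers JNK and p38 to ERK, did not pass the threshold (ENSMUSG00000039384, chromosome 1, 184013302 to 184075636, plus strand). WT libraries had 10.3, 7.17, 5.09 and 28.9 TPM without beads and 6.75, 2.27 and 7.21 TPM with beads. KO libraries ranged from 1.72 to 13.2 TPM without beads and had 7.81 and 3.70 TPM with beads. The ranges overlapped in both genotypes, and the log2 differences were -0.94 in WT (95% interval -2.29 to 0.41) and 0.12 in KO cells (-1.32 to 1.57; -0.27 scaled).

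Of the Sprouty genes, which encode membrane-associated inhibitors of RAS and RAF activation, Spry1 (ENSMUSG00000037211, chromosome 3, 37639947 to 37644598, plus strand) was called in KO cells. WT libraries had 0.840, 1.10, 0.433 and 1.10 TPM without beads and 2.04, 2.90 and 3.76 TPM with beads. KO libraries ranged from 0 to 1.10 TPM without beads and had 6.74 and 4.12 TPM with beads. Every bead library was above every library without beads. The log2 difference was 2.04 in KO cells (SE 0.42, limma adjusted p = 0.00688; 1.75 and 0.023 scaled) and 1.05 in WT cells (SE 0.39, limma adjusted p = 0.0967). Spry1 shares 710 of 2906 exon bases with the antisense gene Gm42922, which was listed at 0 to 1.14 TPM.

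Spry2 (ENSMUSG00000022114, chromosome 14, 105891947 to 105896819, minus strand) was near the lower end of the scale throughout. WT libraries had 1.22, 0.267, 0.882 and 1.82 TPM without beads, against 0.260, 0.168 and 0 TPM with beads, so that all WT bead libraries were lower. The log2 difference of -0.79 did not pass the threshold (95% interval -1.67 to 0.10, limma adjusted p = 0.245), and the groups overlapped after scaling. KO libraries ranged from 0 to 1.59 TPM without beads and had 0.209 and 0.188 TPM with beads.

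The SPRED genes, whose proteins bring the RAS inhibitor neurofibromin to the membrane, were not called in either genotype. Spred1 (ENSMUSG00000027351, chromosome 2, 117121374 to 117182279, plus strand) was at 0.415 to 1.93 TPM in WT without beads, 1.09 to 3.72 TPM in KO without beads, 0.967, 2.32 and 0.647 TPM in WT with beads, and 0.880 and 2.26 TPM in KO with beads. Its groups overlapped throughout. Spred2 (ENSMUSG00000045671, chromosome 11, 19924375 to 20024026, plus strand) was at 2.90, 2.39, 6.56 and 1.71 TPM in WT without beads and at 2.12, 1.83 and 1.28 TPM with beads. KO libraries had a lowest, median and highest value of 0.518, 1.36 and 6.14 TPM without beads, and 5.28 and 7.27 TPM with beads. The WT and KO estimates of its bead response had opposite signs, -0.58 (95% interval -1.71 to 0.55) and 1.40 (0.19 to 2.61, limma adjusted p = 0.161). Scaled, the KO estimate was 1.05 (limma adjusted p = 0.308).

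**Figure D2:**
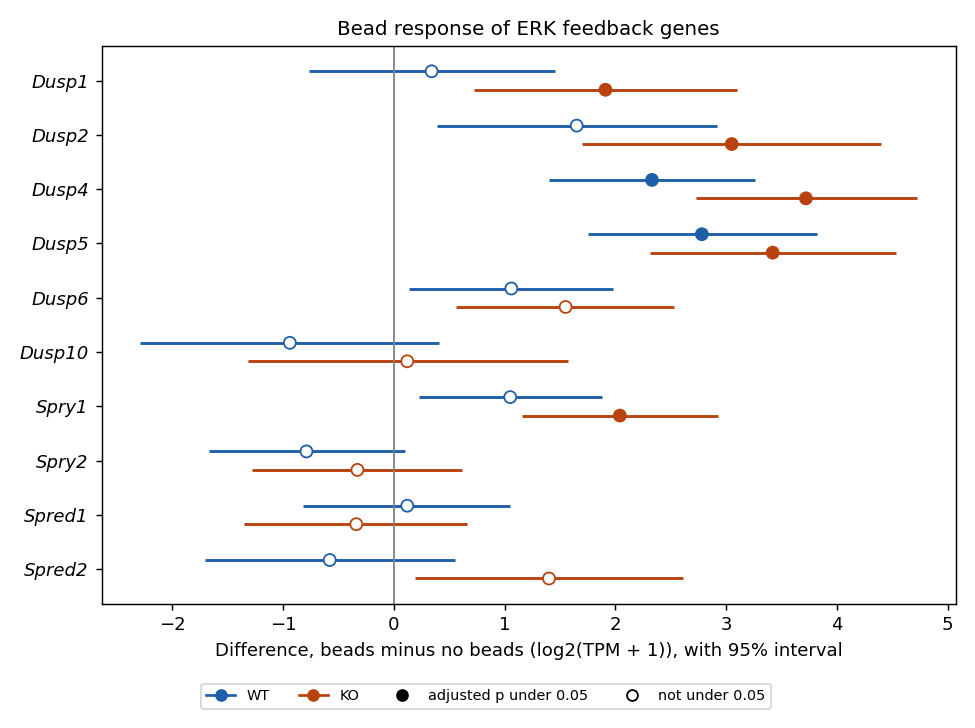
Bead response of each ERK feedback gene, as the limma difference between libraries with and without beads on the log2(TPM + 1) scale (horizontal axis), in WT (blue) and KO (orange) Treg cells; bars are 95% intervals, and filled points passed an adjusted p of 0.05. The 2 filled WT points are Dusp4 (2.33) and Dusp5 (2.78), and the KO estimate lies to the right of the WT estimate for 9 of 10 genes, all but Spred1.

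Without beads, no member was called between KO and WT cells. limma called 0 of 10 members, 0 had an unadjusted p under 0.05, and 0.0734% of all genes tested were called, with 3386 genes at an unadjusted p under 0.05. KO estimates were lower for 7 members and higher for 3 (Dusp5, Dusp6 and Spred1). Dusp5, at 0.04, changed sign under 8 of 28 alternatives. Dusp1 turned to 0.19 and Spry2 to 0.27 with title numbers as a block and the unnumbered libraries left out. The median of the 10 members was -0.43 as deposited and -0.14 scaled, beside -0.11 and 0.12 over all genes. The ranges of WT and KO libraries overlapped for each of the 10 members. The estimate for Dusp10 was -0.95 (95% interval -2.09 to 0.19, limma adjusted p = 0.538), and -0.48 without the WT library numbered 3, which had 28.9 TPM. It was -0.71 for Dusp4 (-1.50 to 0.08, limma adjusted p = 0.495) and 0.63 for Spred1 (-0.17 to 1.42, limma adjusted p = 0.565). For these genes the intervals leave room for differences of more than 1 on the log2 scale.

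With beads, estimates for the feedback genes were higher in KO than in WT cells, and none passed the test. This comparison shares its libraries with the bead responses above. limma called 0 of 10 members, 1 of them (Spred2) had an unadjusted p under 0.05, and 0.00333% of all genes, a single gene, were called, with 868 genes at an unadjusted p under 0.05. As deposited, all 10 estimates were higher in KO cells. Dusp10 turned to -0.12 with median-ratio scaling and to -0.06 with quantile normalization, which also gave -0.01 for Spry2 and -0.05 for Spred1. Single libraries turned signs as well: Dusp10 was at -0.33 without the KO bead library numbered 4 and at -0.31 without the WT bead library numbered 2. Spred1 was at -0.23 without the KO bead library numbered 5 and at -0.05 without the WT bead library numbered 3, which put Spry2 at -0.02. The median of the members was 0.70 (0.59 scaled), beside 0.13 over all genes (0.07 scaled). Both KO libraries lay above all 3 WT libraries for 6 members, Dusp1, Dusp2, Dusp4, Dusp5, Spry1 and Spred2, and for 5 after scaling, when Dusp5 overlapped. The same held for 17.4% of all genes tested and for 18.2% of the genes that averaged 5 TPM or more in some group. No member was lower in both KO libraries than in all WT libraries. The share of all genes that lay below was not computed, for the members or for the lists that follow.

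Spred2 had the largest of these estimates with all libraries in the fit. It was at 6.28 ± 1.41 TPM in KO (SD, n = 2) and 1.74 ± 0.426 TPM in WT cells (n = 3) with beads, a log2 difference of 1.41 (95% interval 0.05 to 2.76, limma unadjusted p = 0.0426 and adjusted p = 1). Dusp1 followed at 1.07 (-0.26 to 2.40), with 38.9 ± 18.5 and 17.3 ± 4.48 TPM. The Dusp1 estimate was 0.58 without the KO bead library numbered 4 and 1.56 without the one numbered 5, when Spred2 was at 1.21. Dusp2 was at 131 ± 24.7 TPM in KO and 68.0 ± 4.55 TPM in WT cells, a difference of 0.93 (-0.58 to 2.43). Dusp4 and Dusp5, called in both genotypes with beads, had estimates of 0.69 (-0.43 to 1.80) and 0.68 (-0.56 to 1.91). The estimate was 0.71 for Spry1 (-0.28 to 1.71) and for Dusp6 (-0.39 to 1.81). Leaving out the KO bead library numbered 4 or 5 gave 0.42 or 1.01 for Spry1 and 0.26 or 1.17 for Dusp6. In bulk samples such as these, a difference in the share of responding cells cannot be told apart from a difference in RNA per cell.

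**Figure D3:**
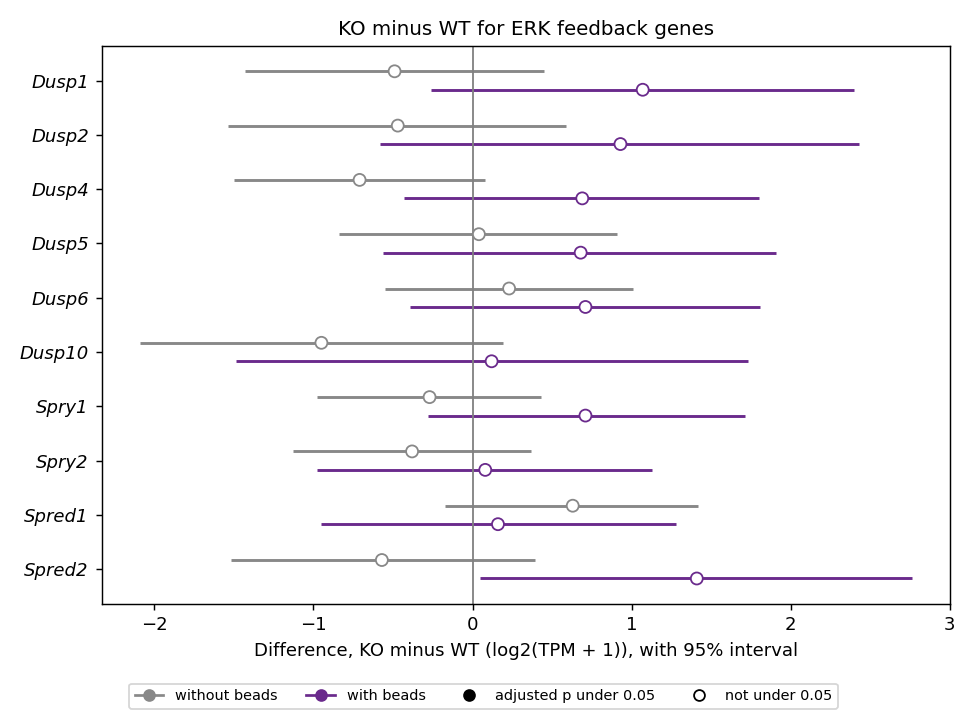
KO minus WT difference of each ERK feedback gene on the log2(TPM + 1) scale (horizontal axis), without beads (grey) and with beads (purple); bars are 95% intervals from limma, and open points did not pass an adjusted p of 0.05. All points are open, and with beads all 10 lie to the right of 0, from 0.08 for Spry2 to 1.41 for Spred2.

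The difference between bead responses, KO response minus WT response, was tested as an interaction. limma called 0 of 10 members, 2 had an unadjusted p under 0.05, and 0.00333% of all genes were called, with 1247 genes at an unadjusted p under 0.05. The estimate was higher in KO cells for 9 members, all but Spred1 (-0.46), with a median of 1.03 as deposited and 0.68 scaled, beside 0.27 and -0.06 over all genes and 0.41 as deposited over the 14262 more abundant ones. Spred2 had the highest estimate, 1.97 (95% interval 0.32 to 3.63, limma unadjusted p = 0.0226, adjusted p = 0.999). For Dusp4 it was 1.39 (0.03 to 2.76, limma unadjusted p = 0.0462, adjusted p = 0.999). Dusp1 was at 1.57 (-0.06 to 3.19) and Dusp2 at 1.40 (-0.45 to 3.25). That Dusp1, Dusp2 and Spry1 were called in KO and not in WT cells is therefore not shown to be a difference between genotypes.

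Levels of the members relative to each other also changed with beads. TPM is per transcript length, so levels can be set beside each other. The 10 genes summed to between 44.8 and 83.8 TPM in WT and between 16.9 and 68.1 TPM in KO libraries without beads. With beads they summed to 121, 132 and 130 TPM in WT and to 279 and 201 TPM in KO libraries. Dusp2 made up 49.2% to 56.5% of the sum in the bead libraries and was the highest member in each of them. Without beads it was the highest in 8 of 10 libraries, the others being led by Dusp1 (the unnumbered WT library) and Dusp10 (the unnumbered KO library). By group mean the order in WT cells without beads was Dusp2, Dusp1, Dusp10, Spred2, Dusp4, Dusp6, Spred1, Spry2, Spry1 and Dusp5, and neighbours in this order overlapped at each step. In KO cells without beads the order began with Dusp2, Dusp1 and Dusp10 as well, with overlap again at each step. With beads Dusp4 and Dusp5 stood in places 3 and 4, behind Dusp2 and Dusp1, in both genotypes. In WT cells Dusp2 stood clear of Dusp1, Dusp5 of Dusp10 and Spred1 of Spry2, while other neighbours overlapped. In KO cells the clear steps were Dusp2 over Dusp1, Dusp4 over Dusp5, Dusp5 over Dusp6, Spry1 over Spred1 and Spred1 over Spry2.

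Other dual-specificity phosphatases, Sprouty and SPRED genes and further inhibitors of the pathway formed a separate list. Of 20 tested genes (of 21 listed), limma called 0 in WT and 1, higher, in KO cells with beads, beside 4.6% and 5.95% of all genes called higher. No Dusp, Spry or Spred gene of the list was called. The called gene was Ptpn7, a tyrosine phosphatase of hematopoietic cells that binds ERK. It was at 33.7 ± 4.49 TPM with (SD, n = 2) and 6.62 ± 3.89 TPM without beads in KO cells (n = 6), a log2 difference of 2.31 (SE 0.39, limma adjusted p = 0.00211). Without beads every KO library was below every WT library for Ptpn7, with WT cells at 17.7 ± 1.85 TPM (n = 4). That log2 difference was -1.42 (limma adjusted p = 0.123), and with beads the genotypes overlapped. The median bead response of these 20 genes was -0.43 in WT and 0.06 in KO cells (-0.32 scaled). Between genotypes with beads, both KO libraries lay above all WT libraries for 6 of the 20, beside 17.4% of all genes tested, and below for 1. Dusp16, which prefers JNK and p38, was at 9.10 and 7.12 TPM in KO and at 2.72, 2.53 and 2.31 TPM in WT libraries. Ptpn5, which also dephosphorylates ERK, was at 12.6 and 12 TPM in KO and at 3.86, 4.29 and 5.03 TPM in WT libraries. Neither was called (limma adjusted p = 1 for both). Without beads Ptpn5 was at 16.9 ± 6.27 TPM in KO (SD, n = 6) and 7.23 ± 2.7 TPM in WT cells (n = 4), a log2 difference of 1.12 (limma adjusted p = 0.214), with ranges that overlapped.

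A further list held components of the cascade itself, from receptor adaptors to ERK and its target kinases. Of 29 tested genes, limma called 1 higher and 3 lower in WT cells with beads and 1 higher in KO cells, beside 11.2% and 8.11% of all genes called in either direction. The small GTPase Hras was higher in WT cells, by 3.23 on the log2 scale (limma adjusted p = 0.00798). The RAS inhibitors Nf1 and Rasa3 fell by 1.35 and 2.10 in WT cells (limma adjusted p = 0.00997 and 0.0101), and the exchange factor Rasgrp2 fell by 2.05 (limma adjusted p = 0.0378). In KO cells the ERK kinase Map2k2 was called, at 1.30 (limma adjusted p = 0.0442). Median bead responses of the list were -0.34 in WT and 0.46 in KO cells (0.01 scaled).

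Of the transcription factors and other early genes that ERK induces, some rose with beads and most were not called. limma called 6 of 19 tested genes (of 21 listed) higher in WT and 5 in KO cells, and 0 lower, beside 4.6% and 5.95% of all genes called higher. In WT cells the estimates of the others included -1.39 for Etv4, -0.43 for Fosb and 0.05 for Elk4. Myc, a driver of growth and metabolism, rose by 4.59 in WT and 4.88 in KO cells (limma adjusted p = 6.16e-05 and 4.23e-05). Egr1 and Egr2, early response zinc finger factors, rose by 2.57 and 3.84 in WT and by 3.07 and 3.72 in KO cells (limma adjusted p from 0.000307 to 0.0018). The median bead response of the list was 0.66 in WT and 1.00 in KO cells (0.64 scaled). Between genotypes with beads limma called 0, and the median difference was 0.18, beside 0.70 for the feedback genes. Both KO libraries lay above all WT libraries for 4 of the 19 genes, beside 17.4% of all genes tested, and below for 1. The one below was Jun, a subunit of AP-1, at 3.56 and 5.76 TPM in KO and 12.4, 10.2 and 16.5 TPM in WT libraries (log2 -1.31, limma adjusted p = 1). Egr1 was among those above, at 25.9 and 20.1 TPM in KO and 13.4, 16.5 and 14.3 TPM in WT libraries.

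**Figure D4:**
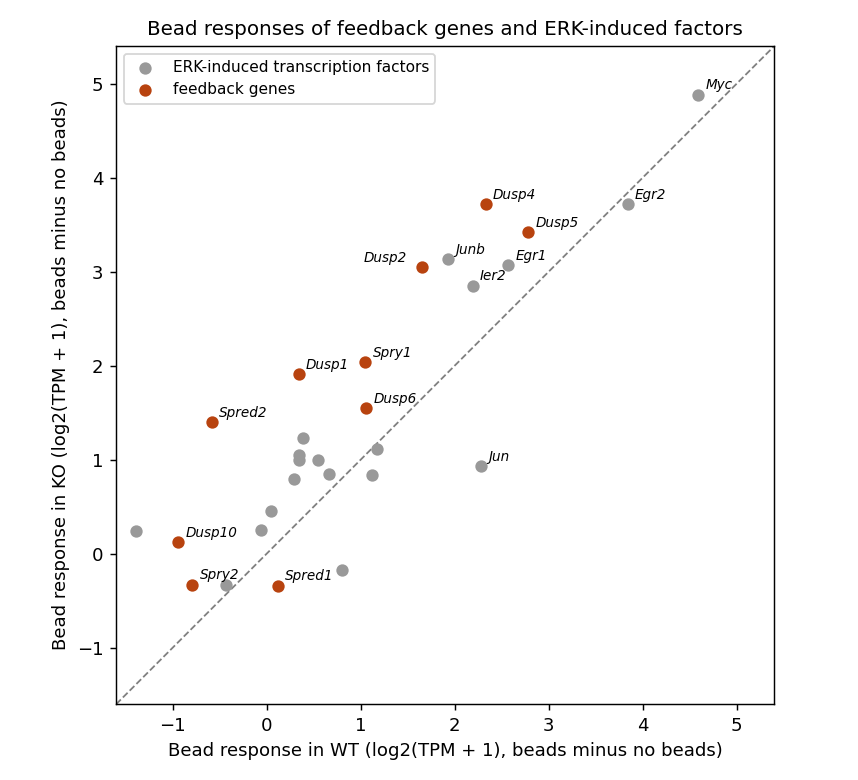
Bead response in KO Treg cells (vertical axis) against that in WT Treg cells (horizontal axis), both as limma differences on the log2(TPM + 1) scale. Shown are the 10 feedback genes (orange) and 19 transcription factors and other early genes that ERK induces (grey, labelled ERK-induced transcription factors). The dashed line marks equal responses. Of the feedback genes 9 lie above the line, and of the 19 early genes 14. The median KO minus WT response of the 19 was 0.41 as deposited and -0.03 scaled. Over the 14262 genes that averaged 5 TPM or more in some group it was also 0.41 as deposited. Jun lies below the line, at 2.28 in WT and 0.93 in KO cells.

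The JNK and p38 branch, which Dusp1 and Dusp10 also restrain, had 4 of 19 genes called higher and 1 lower in WT cells with beads, and 4 higher in KO cells. Over all genes tested, 4.6% in WT and 5.95% in KO cells were called higher, and 11.2% and 8.11% in either direction. Gadd45b and Gadd45g, stress-induced activators of this branch, and the p38 target kinase Mapkapk3 were called higher in both genotypes. Gadd45g rose by 3.82 in WT and 2.20 in KO cells (limma adjusted p = 0.000464 and 0.019). With beads Gadd45g was at 7.78 and 9.07 TPM in KO and at 14.5, 24.7 and 23.0 TPM in WT libraries (limma adjusted p = 1). Both KO libraries were thus below all WT libraries for this gene. Over the 19 genes of the branch, both were above for 4, beside 17.4% of all genes tested, and below for 2. The median KO minus WT difference of the branch with beads was 0.31 (0.22 scaled). Median bead responses of the branch were -0.20 in WT and 0.37 in KO cells (-0.06 scaled). Of 20 general activation genes, 13 were called higher in WT and 14 in KO cells, beside 4.6% and 5.95% of all genes. Both KO bead libraries lay above all WT bead libraries for 6 of them, beside 17.4% of all genes tested, and below for 6 (median -0.04). The share of all genes that lay below was not computed. Cd69, an early activation marker, and Nr4a1, a transcription factor induced by the T cell receptor, were above, at 218 and 168 TPM against 70.6 to 95.1 TPM and at 118 and 85.1 TPM against 40.6 to 41.9 TPM. Il2ra (CD25), the transcription factor Irf4 and the costimulator Icos were below. Already without beads, every KO library was below every WT library for 2 of the 20, Icos and Tnfrsf18, and above for 0. Icos was then at 5.33 to 44.6 TPM in KO and 48.2 to 63.6 TPM in WT libraries (log2 -1.79, limma adjusted p = 0.173). Without beads limma called 0 genes of these 5 lists between genotypes.

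The genes whose pattern over the 15 libraries was most like that of a member were sought among 4329 genes that averaged 20 TPM or more in some group, for the 8 members with at least 5 TPM in a group. Pearson correlations of log2(TPM + 1) are given as descriptions, since all libraries share the contrast between bead and unstimulated cells. Dusp4 was most like Ppan (0.973), Sec61a1 (0.969) and Rpl31 (0.966), and Dusp5 like Twsg1 (0.957), Mrps28 (0.945) and Cks1b (0.939). For Dusp2 they were Arcn1 (0.931), Vapa (0.927) and Nfkbid (0.917), and for Spry1 Eno3 (0.925), Erp29 (0.916) and Ckb (0.914). Dusp1 was most like Mrpl24 (0.875) and Dusp6 like Mapkapk3 (0.847). Dusp10 had other partners, led by Inpp4b (0.880), Slc44a2 (0.873) and Ccl5 (0.867). Spred2 had the lowest leading value, 0.773 with Ddr2.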

How the data were processed

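Per the labels, the values deposited by the authors, 1 table for each of 15 libraries, are TPM per Ensembl gene. The submitters' processing notes name STAR, Salmon, DESeq2 and the genome build mm10; their versions and roles were not given in the sources used here. Only the 30949 genes listed both without beads (36904 listed) and with beads (31785 listed) were analysed; GENCODE vM21 supplied symbols and mm10 coordinates. Library sums ran from 819697 to 938139 TPM, and without read depth no counting error could be set.

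The filter required 1 TPM or more in 2 or more libraries, which left 29989 genes. limma 3.58.1 in R 4.3.3, with its trend option, fitted log2(TPM + 1) with a mean for each of the 4 groups (11 residual degrees of freedom). Each of the 5 contrasts was adjusted over the whole table (Benjamini-Hochberg), with calls at adjusted p under 0.05. All adjusted p-values come from limma, under the alternative named where one is. Values after ± are SDs between libraries. For Dock8, exact permutation ran over 210 and 10 assignments of libraries. The fit was tested on simulated data.

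Members and lists were chosen with earlier results of these data known. The rule for naming genes of a pathway list allowed up to 4 called ones per comparison, or 2 if there was none; Egr1, Il2ra, Irf4 and Icos, in the comparison of genotypes with beads, and Etv4, Fosb and Elk4 were picked after their values were seen. The alternatives were pseudocounts of 0.1 and 5, other filters, 4 scalings (including median ratios over 15083 genes or over 815 abundant ones), fitting only the groups compared, array weights, a block for title numbers, and leaving out each library or both unnumbered ones. Leaving out libraries with over 35% of TPM in 10 predicted genes was added after the data were seen.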

Additional observations from a re-analysis of the deposited data

How the results depend on the processing

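No member changed sign in a comparison where it was called, and the 3 comparisons with 0 members called stayed at 0 under each alternative run. Members called with beads in WT cells numbered 2, and 1 with a pseudocount of 0.1 TPM (Dusp5), 5 with median-ratio scaling, 4 with quantile normalization, 4 with array weights, and 2 to 3 with a library left out. Members called with beads in KO cells numbered 5, and 3 without the libraries with over 35% of TPM in predicted genes, an alternative chosen after seeing the data (Dusp1 and Dusp2 lost, at log2 1.44 and 2.74, limma adjusted p = 0.135 and 0.0662); with a library left out the count ran from 2 to 6. It was 2 without the KO bead library numbered 4 and 2 without the one numbered 5; the cause was not tested. Dusp6 was called in KO cells under 7 of 28 alternatives. Without beads the Dock8 difference was -0.32 scaled to abundant genes (exact permutation p = 0.129) and ran from -0.85 to -0.46 with a library left out, and with beads from -0.59 to -0.2. Samples sharing a title number did not deviate together (correlations from -0.04 to 0.05 over 5937 genes), so the numbers were not taken to pair them. With the number as a replicate block and the unnumbered libraries left out, 2 members were called with beads in WT and 4 in KO cells, where Spry1 was not called (limma adjusted p = 0.192), and 0 in the other comparisons. Against the fit that also left out the unnumbered libraries, the block moved calls over all genes from 3385 to 2350 with beads in WT, from 2680 to 933 in KO, from 43 to 1 between genotypes without beads, from 2 to 0 with beads and from 5 to 0 in the difference of responses (3366, 2431, 22, 1 and 1 with all libraries and no block). In the block fit, estimates between genotypes with beads ran from -0.06 for Dusp5 to 2.64 for Dusp1, beside 0.68 and 1.07 with all libraries and no block. Spry1 was at 0.03 and Spry2 at 1.26, beside 0.71 and 0.08. The WT and KO bead libraries shared no title number, so in them an effect tied to the number cannot be told apart from genotype. Those block estimates therefore also rest on the libraries without beads. Own-numbered libraries correlated best in 2 of 8 cases. The 2 KO bead libraries and the unknown read depth limit the precision of each value with beads in KO cells.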
